A study of Homo sapiens with 10 samples.

Results

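HSF1 chromatin immunoprecipitation and sequencing (ChIP-seq) was compared between heat-shocked and untreated HCT116 cells that lack FBXW7 (KO). HCT116 is an established human colon cancer line, and FBXW7 is the subunit of a ubiquitin ligase that picks proteins for degradation. The heat shock group had 2 libraries from cells held at 42 °C for 1 h, and the untreated group had 1. All 3 came from FBXW7 KO cells, with the same number of cells and the same amount (5 µg) of an antibody to human HSF1, so both groups share the deletion. Unmodified (WT) cells of the same design served as an outside readout. How many KO clones were used is not given in the sources used here, and peak lists cannot show the deletion or the identity of the line. Nothing in the labels says that the replicates were separate cultures, so their spread may be technical.

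The members were every peak of the 3 KO lists, 1566 and 3257 in heat shock replicates 1 and 2 and 2866 in untreated cells, on build hg19. Peaks that shared at least 1 bp were joined, which gave 6530 regions, against 6597 when the 3 WT lists were joined as well. A region was classed by the lists that held a peak in it. Scores are the authors' own, and a higher score is a stronger call within its list. Each list starts at a score of about 50 (50 to 50.02), where a region below the caller's limit goes unlisted, so a missing peak is not absence of HSF1. Read depth is unknown, and scores of different libraries are not known to share a scale. With 2 libraries against 1 no useful test exists, so classes are given as counts.

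HSF1 is the factor that switches on chaperone genes when proteins unfold. In resting cells chaperones hold it inactive. On heating it assembles into trimers that bind heat shock elements, which are repeats of the letters GAA in alternating direction, and it then raises transcription of chaperones and of ubiquitin genes. Cancer cells often keep part of this factor on chromatin without heating.

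Gene names were placed on regions by general knowledge of where gene starts lie on hg19, since no annotation of that build was used. A region was given to a gene if it lay within 1000 bp of its start. Of 110 starts looked up, 76 had a KO region. All 76 were on the same chromosome in a RefSeq table of another build. Of neighbouring pairs on a chromosome, 54 of 54 stood in the same order there, but only after a correction: the head-to-head pair HSPD1 and HSPE1 was first reversed, and its rounded positions were changed. This order is therefore not an independent check of the names. Many starts were added after the regions had been seen, so the share with a region says nothing about genes at large, and a gene that is not named was not shown to lack a region.

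Promoter sequences of 5 of these genes are shown because they hold a complete heat shock element; they were picked after the search, and genes picked first mostly held none. They are RefSeq sequences of build GRCh38.p14, written 5′ to 3′ on the strand of the gene and upstream of the start. Capitals mark a complete element, which is 3 units in alternating direction with 2 free bases between them: GAA, TTC, GAA or TTC, GAA, TTC. These forms are each the other's reverse complement, so both strands were searched. HSPA8 makes the constitutive HSP70 chaperone of the cytosol (chr11:123062139-123062386, minus strand), CHORDC1 an HSP90 co-chaperone (chr11:90223050-90223149, minus) and DNAJB6 an HSP40 co-chaperone (chr7:157336833-157336925, plus). SERPINH1 makes the collagen chaperone HSP47 (chr11:75562137-75562229, plus). HSPA6 makes the strictly inducible HSP70 known as HSP70B′ (chr1:161524426-161524518, plus).
HSPA8: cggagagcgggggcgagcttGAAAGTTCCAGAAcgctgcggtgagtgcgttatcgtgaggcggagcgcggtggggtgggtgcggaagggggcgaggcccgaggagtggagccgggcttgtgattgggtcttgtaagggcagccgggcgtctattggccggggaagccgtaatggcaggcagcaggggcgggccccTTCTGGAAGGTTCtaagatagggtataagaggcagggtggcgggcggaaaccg
CHORDC1: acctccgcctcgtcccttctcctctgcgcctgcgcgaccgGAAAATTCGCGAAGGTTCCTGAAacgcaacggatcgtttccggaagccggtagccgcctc
DNAJB6: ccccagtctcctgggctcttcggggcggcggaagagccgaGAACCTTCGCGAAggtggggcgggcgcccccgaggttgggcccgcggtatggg
SERPINH1: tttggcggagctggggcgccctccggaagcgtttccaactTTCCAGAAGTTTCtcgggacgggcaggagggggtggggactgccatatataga
HSPA6: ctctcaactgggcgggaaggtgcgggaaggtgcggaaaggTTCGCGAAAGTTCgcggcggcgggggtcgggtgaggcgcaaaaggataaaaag

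HSPA8 holds 2 separate elements and CHORDC1 holds 3 overlapping matches in 1 run. The first 4 genes lie at regions called in all 3 KO lists, whereas the HSPA6 region was called in both heat shock lists only. A 300-base promoter, from 250 bases before the start to 50 after it, was found for 66 of the 76 genes. With each gene classed by its highest-scoring region, a complete element was present in 7 of 52 genes of the class of all 3 lists (13.5%, exact 95% interval 5.59 to 25.8) and in 172 of all 35116 promoters (0.490%). The 7 were HSPA8, CHORDC1, DNAJB6, SERPINH1, DNAJA1, PGAM5 and RBM23. These genes were named with the regions in view and many are known HSF1 targets, so the share cannot be read as one for all regions. A pair of units, with the same spacing, was present in 21 of the 52 (40.4%) and in 13.5% of all promoters. Among the 14 named genes of the other classes, 1 held a complete element (7.14%, interval 0.181 to 33.9) and 5 held a pair of units (35.7%). The element therefore does not set the class of all 3 lists apart from the other named genes. A match is a stretch of letters and not a measured site, and the peaks reach beyond this window.

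Most KO regions belonged to a single list, and the strong ones belonged to all 3. Regions of all 3 lists numbered 366 (5.60% of the 6530), those of both heat shock replicates without the untreated list 80 (1.23%), and those of the untreated list alone 2186 (33.5%). Of the remainder, 264 (4.04%) were shared by replicate 2 and untreated cells, 35 (0.536%) by replicate 1 and untreated cells, 1066 (16.3%) were in replicate 1 alone and 2533 (38.8%) in replicate 2 alone. The single-list classes were weak. Of the 2186 untreated-only regions, 77 had a score of at least 100, against 302 of the 366 shared ones. Their median scores in the untreated list were 56.1 and 216. The heat shock replicates split in the same way, since 1066 of the 1547 regions of replicate 1 (68.9%) and 2533 of the 3243 of replicate 2 (78.1%) were in no other KO list. Untreated cells lay between them at 76.7% (2186 of 2851). The untreated list thus held no larger share of private regions than replicate 2 did. The class counts turn on which heat shock library is used: without replicate 2, 1146 regions were in heat shock and not in untreated cells and 401 were in both, and without replicate 1 these were 2613 and 630. Peaks were wider in shared regions within each list. The median width in replicates 1 and 2 was 258.5 and 435 bp at shared regions and 165.5 and 236.5 bp in the heat shock class, and in untreated cells it was 392.5 bp at shared regions and 165 bp in the untreated-only class.

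**Figure D1:**
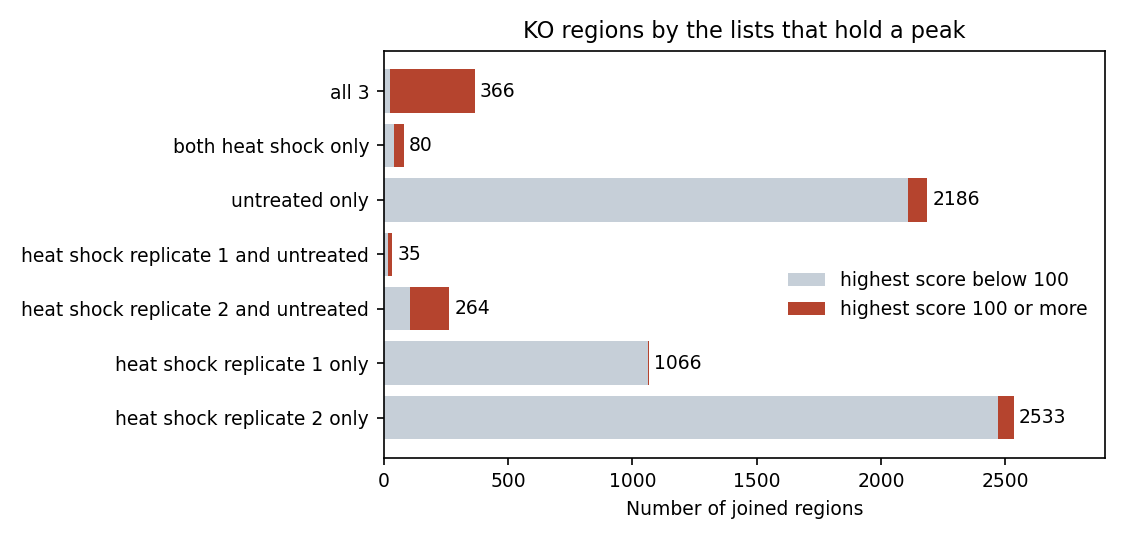
Bars give the number of joined regions in each class of the 3 KO lists, split by whether the highest score of the region reached 100. The 366 regions of all 3 lists are mostly above that score, while the 2186 untreated-only regions and both single-replicate classes are mostly below it.

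Whether a region was also called without heat shock went with its strength. The heat shock replicates had 446 regions in common, of which 366 (82.1%, exact 95% interval 78.2 to 85.5) were also called in untreated cells. By the lower of the 2 heat shock scores, the share was 131 of 191 (68.6%) between 50 and 75 and 49 of 61 (80.3%) between 75 and 100. It was 90 of 96 (93.8%) between 100 and 200, 70 of 72 (97.2%) between 200 and 500, and 26 of 26 at 500 or more (interval 86.8 to 100). No region with both heat shock scores at 500 or more was missing from untreated KO. Seen from the untreated list, 80 of 80 regions scoring 500 or more were in both heat shock lists, and 114 of 144 (79.2%) of those between 200 and 500. Of these 144, replicate 2 held 140 and replicate 1 held 116, and 2 were in neither. Intervals cover counting error only.

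**Figure D2:**
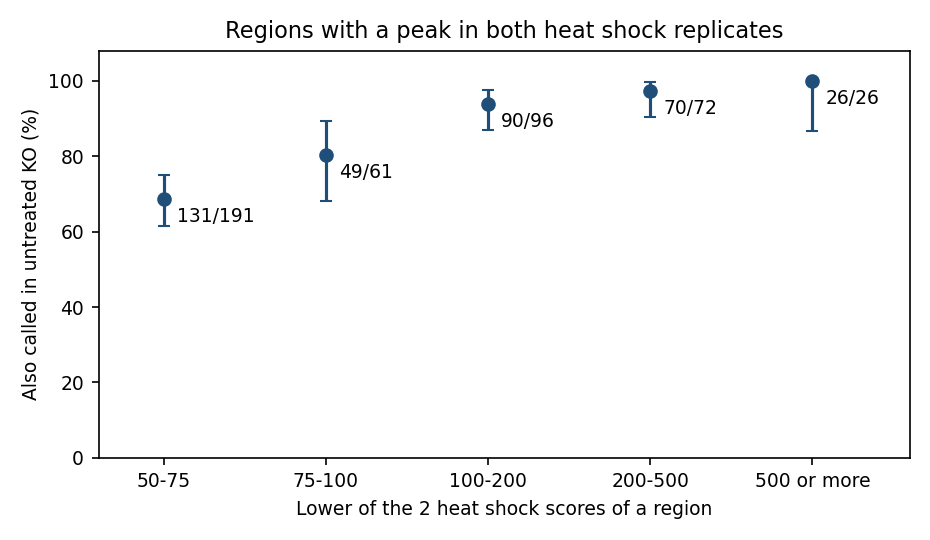
Points give, for regions common to the heat shock replicates, the percent also called in untreated KO, by the lower of the 2 heat shock scores, with exact 95% intervals and counts beside them. The share goes from 68.6% in the lowest bin to 26 of 26 in the highest.

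Chaperone starts were among the highest shared regions of each list, together with a few other genes. HSPD1 and HSPE1 encode the mitochondrial chaperonin and its lid and share 1 start region (chr2:198364224-198365301), which scored 2700.4, 3100 and 3100 in heat shock replicates 1 and 2 and untreated cells. HSP90AA1, the inducible cytosolic HSP90 (chr14:102553116-102554059), scored 1837, 3100 and 3100. HSPH1, the HSP110 exchange factor of HSP70 (chr13:31735671-31736596), scored 1502, 2974 and 2581. These regions stood among the 6 highest of every list, heated or not. HSP90AB1, the constitutive HSP90, had a pair of regions. The stronger (chr6:44213858-44214612) ranked 7 in each list, and the weaker (chr6:44215227-44215838) ranked 22, 18 and 45. The co-chaperone STIP1, which links HSP70 to HSP90 (chr11:63952797-63953919), ranked 9, 10 and 13. TCP1, a subunit of the cytosolic chaperonin TRiC, shares its region with the start of the mitochondrial ribosome gene MRPL18 (chr6:160210581-160211275, ranks 15, 9 and 12). Genes outside the chaperone families stood as high. The region of the deSUMOylase gene USPL1 (chr13:31191276-31192248) scored 2129, 3188 and 3100, and that of PWWP3A (chr19:1354213-1354982) scored 1767, 3100 and 3100. The mitochondrial phosphatase gene PGAM5 (chr12:133286712-133287496) ranked 8, 12 and 9, and the splicing factor gene TRA2B (chr3:185655698-185656387) ranked 10, 14 and 10. The unnamed region chr13:34116691-34117365 ranked 5, 6 and 6. The value 3100 recurs in 2 lists, although 1 region passed it, so the order at the very top may not be resolved.

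By family, chaperone starts were held by the untreated list as often as by heat shock replicate 2. Of 86 genes in 6 lists of chaperones and co-chaperones, 56 were looked up and 35 had a region. Of these 35, 29 had a peak in heat shock replicate 1, 34 in replicate 2 and 34 in untreated cells, beside 23.7%, 49.7% and 43.7% of all 6530 regions. The units differ, since a gene counted if any region at its start had a peak, whereas the percentages count single regions. By the highest-scoring region at each start, 27 were in all 3 lists, 6 in replicate 2 and untreated cells, 1 in both heat shock lists only and 1 in untreated cells only. Chaperonins gave 9 of 10, namely HSPD1, HSPE1, TCP1, CCT3, CCT4, CCT5, CCT6A and CCT7 in all 3 lists and CCT8 in replicate 2 and untreated cells. Co-chaperones of HSP90 and HSP70 gave 9 of the 16 looked up. AHSA1, BAG2, CHORDC1, FKBP4, PTGES3, ST13 and STIP1 were in all 3 lists, and PPID and SUGT1 in replicate 2 and untreated cells. HSP40 genes gave 5 of the 9 looked up, from a list of 22 (DNAJA1, DNAJA4, DNAJB1, DNAJB4 and DNAJB6). Many starts were entered after the regions had been seen and no share over all genes was computed, so these are not family rates. Among small heat shock proteins and their partners, HSPB1, BAG3 and SERPINH1 were in all 3. Among ubiquitin and proteasome genes, UBB and UBQLN1 were in all 3 lists and the autophagy receptor gene SQSTM1 in replicate 2 alone (score 58.4). Among 9 immediate-early and stress genes looked up, JUN had a region, in untreated cells only, at a score of 53.1. Of 2 genes looked up among HSF genes and regulators, HSBP1, which encodes an HSF1-binding protein, was in all 3 lists. HSF1 itself belongs to this list of genes, and no region was matched to its start, which does not show that it lacks one. Neither of 2 cell cycle genes looked up had a region. The lists of ribosomal proteins and of genes of other tissues were not looked up.

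Genes of the HSP70 and HSP110 families fell into 4 classes. HSPA8 (chr11:122932445-122933327) scored 562, 1719 and 1562 in heat shock replicates 1 and 2 and untreated cells. HSPA9, the mitochondrial HSP70 (chr5:137910744-137911375), scored 160, 727 and 229. HSPA1B, the main inducible HSP70 (chr6:31794931-31795650), scored 222, 1004 and 696. No region was matched at HSPA1A, its near-identical copy, and reads of the copies may not be separable. HSPA6 (chr1:161494036-161494339) scored 90.9 and 114 with heat shock, at ranks 242 and 430, and was not listed in untreated cells or in any WT list. Its relative HSPA4L, an HSP110 family member (chr4:128703100-128703503), was the reverse, with a score of 118 at rank 410 in untreated cells and no heat shock peak. HSPA4 (chr5:132387532-132387861) scored 75.7 in replicate 2 and 118 in untreated cells. HSPA6 too has a near-identical copy, HSPA7, which was not looked up. Of the 287 untreated regions that scored between 100 and 200, as at HSPA4L, 75 (26.1%) were in neither heat shock list.

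Against the difference between the heat shock replicates, the order of the 366 shared regions in untreated cells was nearer to replicate 2 and further from replicate 1. With 1 untreated library, an effect of heat shock on the order cannot be told from differences between libraries. Regions were ranked by score among these 366 in each list, and Spearman's rho across regions, which share library and input within a list, is given as a description. It was 0.74 between the heat shock replicates, 0.82 between replicate 2 and untreated cells and 0.63 between replicate 1 and untreated cells. The median difference in rank was 40 places between the replicates, 34 between replicate 2 and untreated cells and 47.75 between replicate 1 and untreated cells. The untreated order was thus nearer to that of replicate 2 than the heat shock orders were to each other. Of the 50 highest regions of each list, 37 were common to all 3. Peak centres lay a median of 32 to 35.5 bp apart in the 3 pairs. Ranks within one set of regions shift in both directions by construction, so a balance of higher and lower says nothing of overall occupancy. Against untreated cells, 119 regions stood higher in both heat shock lists (32.5%) and 134 stood lower in both (36.6%). The remaining 113 were mixed (30.9%). Of 29 chaperone regions, 8 stood higher in both, 9 lower in both and 12 were mixed (41.4%).

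A few named genes had wide gaps in rank in both replicates. DNAJB1, the HSP40 that works with inducible HSP70, had a region at chr19:14628563-14628973 that ranked 204 and 191 with heat shock and 338 without. A neighbour matched to the same start, chr19:14629117-14629400, was not listed in replicate 1 and scored 84.5 in replicate 2 and 266 in untreated cells. The adjacent regions of this gene thus pointed in opposite directions. The TRiC subunit gene CCT3 (chr1:156307797-156308280) ranked 95 and 106 against 204. The reverse held at CCT6A, another TRiC subunit gene (chr7:56119231-56119728), which scored 64.1 and 115 with heat shock and 420 (419.73) without, at ranks 294, 288 and 93. By the smaller of its shifts in the replicates it had the widest downward gap of the 366, although chr1:75198547-75199111 moved further in replicate 1. Others that stood lower in both were chr18:108571-109835, chr16:33959104-33959400, chr2:99953502-99953881 and chr1:75198547-75199111, the last with scores of 70.5, 260.03 and 736. Of the 5 that stood highest against untreated cells by the smaller shift, 3 lay inside HSF1, 1 was DNAJB1 and 1 was the unnamed region chr16:33293807-33294254, with scores of 239, 243 and 50.8.

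**Figure D3:**
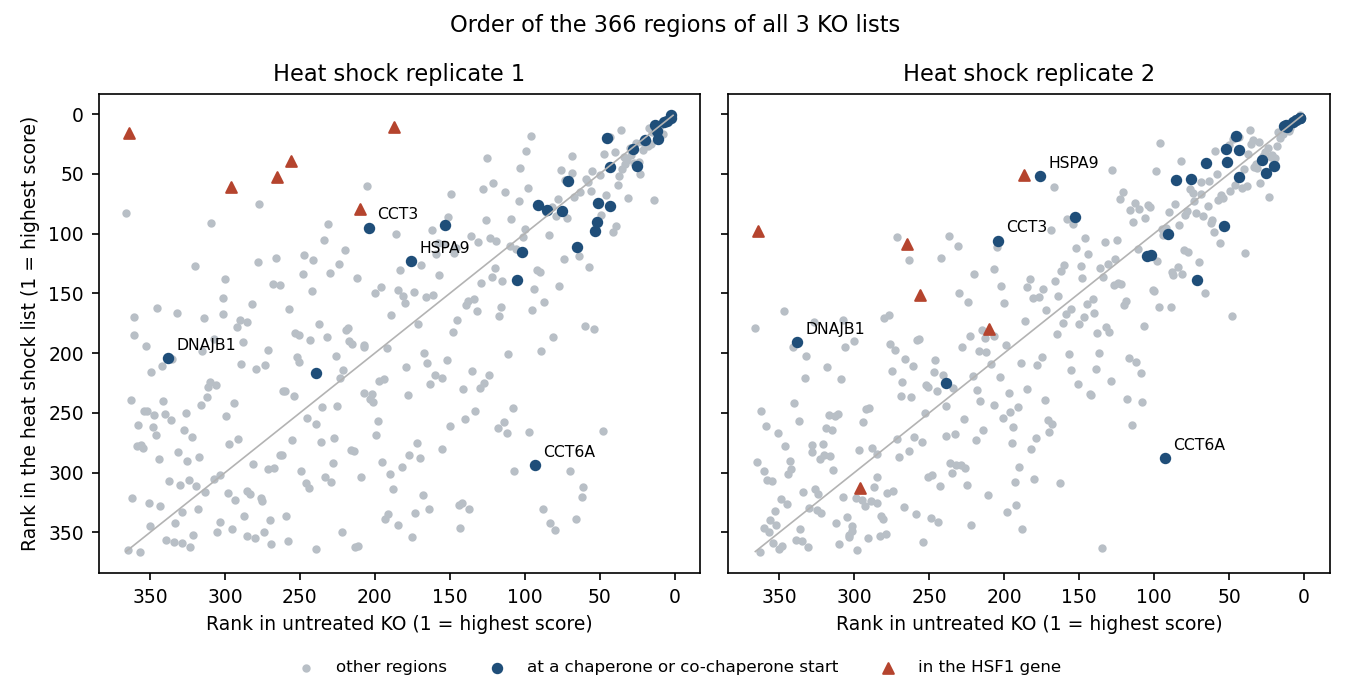
Each point is one of the 366 regions of all 3 KO lists, with its rank among them in untreated KO on the x axis and in each heat shock replicate on the y axis, and 1 as the highest score. Of 29 chaperone regions, 12, 15 and 13 are among the 50 highest in replicates 1 and 2 and untreated KO, 5 of 6 regions in HSF1 lie above it in both replicates, and CCT6A lies below it.

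HSF1's own gene carried 5 of the 8 regions that scored at least 100 in both heat shock replicates and had no untreated peak. Along 22.6 kb of the gene (chr8:145515377-145537998) there were 11 regions, of which 6 were in all 3 lists and 5 in both heat shock lists only. All 11 had a peak in both heat shock replicates and 6 had one in untreated cells. The strongest of those without an untreated peak, chr8:145535630-145535975, scored 647 and 387 in replicates 1 and 2. At the 5′ side, chr8:145515377-145515603 scored 399 and 248. The stronger of this pair lay 48 bases from a region whose untreated peak scored 129.73. In all, 4 of the 5 lay 24 to 295 bases from a region with an untreated peak, so that joining within 1000 bp makes them part of shared regions. The 5′ region lay 16938 bases from the nearest. Replicate 1 scored above replicate 2 at each of these 5. Median scores in replicates 1 and 2 ran the other way, at 67.8 and 86.1 over the 80 regions of the heat shock class and 104 and 240 over the 366 shared regions. At the 3′ side, chr8:145537634-145537998 scored 740.3, 771 and 212 in replicates 1 and 2 and untreated cells, at ranks 11, 51 and 215 of the whole lists. The region chr8:145533074-145533315 scored 638, 427 and 52.2, which is the widest upward gap among the 366 shared regions by the smaller shift (16 and 98 against 364). Of the 6 shared regions in HSF1, 5 stood higher in both heat shock lists; the sixth, chr8:145535105-145535316, scored 297, 98.6 and 104. In the WT lists the order was different. Peaks of untreated WT overlapped 7 of the 11 regions, and those of WT heat shock replicates 1 and 2 overlapped 4 and 10. WT peaks are wide, and 1 of them can cover several KO regions. Whether the regions coincide with exons was not examined, since no hg19 annotation was used. Reads were not analysed here, so whether these peaks in HSF1 and TET1 are HSF1 binding was not tested.

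TET1, which encodes an enzyme that oxidises methylated cytosine, held a further group of heat shock regions. Other gene bodies were not searched in full. Within its body 5 regions spanned 18.9 kb (chr10:70432638-70451568), 3 in both heat shock lists and 2 in replicate 1 alone, and none was in untreated KO. The strongest, chr10:70450575-70451568, scored 718 in replicate 1 and 194 in replicate 2. It was followed by chr10:70446094-70446475 at 314 and 94.1 and chr10:70442558-70442783 at 126 and 62.3. Replicate 1 was higher at each of them, although its list is the shorter. WT heat shock lists each held a peak over the strongest, and untreated WT held none.

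**Figure D4:**
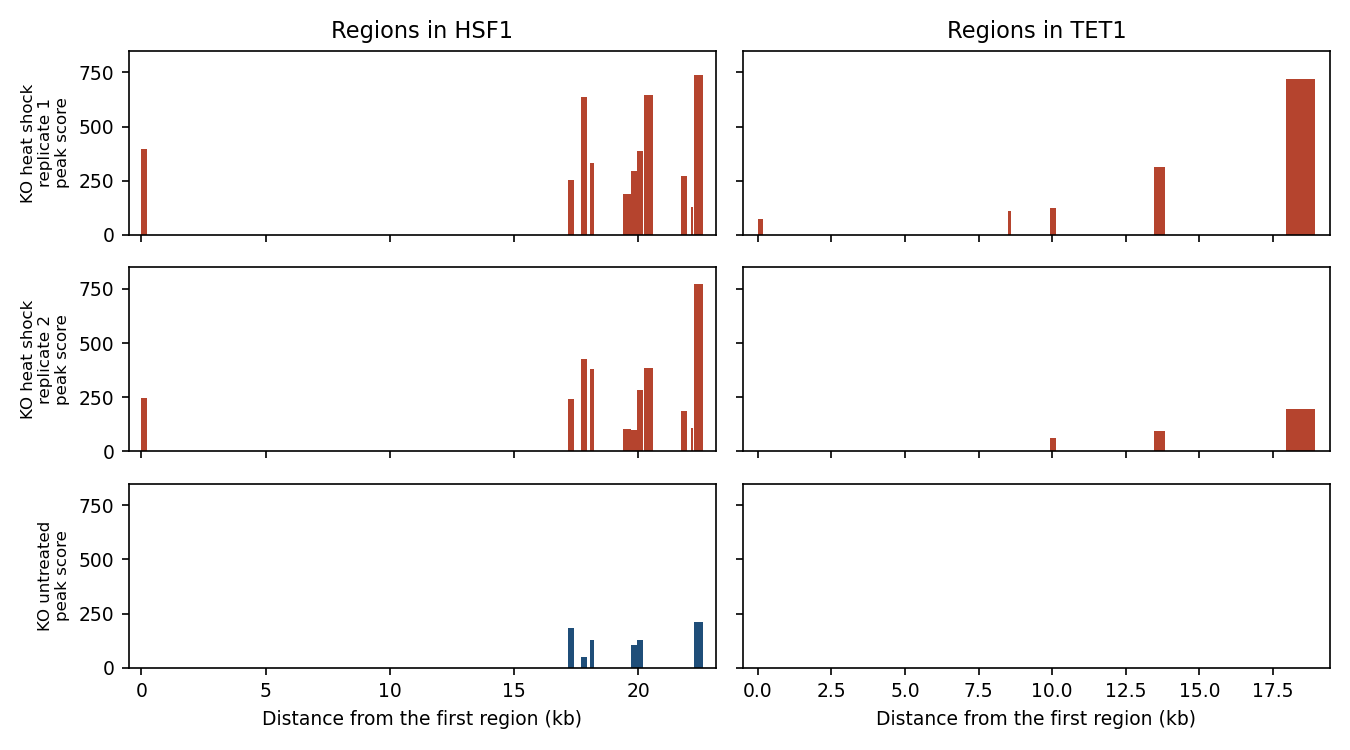
Bars give the score of the peak in each region of HSF1 (left) and TET1 (right) in each KO list, drawn at the distance of the region from the first one, with bar width equal to region length and no bar where no peak was listed. Both heat shock lists hold a peak at all 11 HSF1 regions, and untreated KO at 6 of them and at none in TET1.

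Away from these 2 genes the heat shock class was weak. Of its 80 regions, 8 scored at least 100 in both replicates, of which 5 lay in HSF1 and 1 in TET1. The other 2 were chr8:18924860-18925181 (146 and 181) and chrY:13476399-13476524 (122 and 136). The next by score were chr1:8181450-8181792 (95.5 and 105) and chr20:49192576-49192926 (94.4 and 138), the latter within the phosphatase gene PTPN1. Beside HSPA6, 1 further of the starts matched here fell in this class, that of the collagen lysyl hydroxylase gene PLOD1 (chr1:11994651-11995111, 71.8 and 160.4). The region at the 5′ side of HSF1 (chr8:145515377-145515603) is also in this class, and whether it lies at the start of HSF1 was not examined. That no region was matched to this start therefore does not show that the start lacks one. Chromosome Y held 9 of the 80 (11.2%), 22 of the 366 shared regions (6.01%), 30 of the 2186 untreated-only ones (1.37%) and 90 of all 6530 (1.38%). The class of replicate 1 and untreated cells had a like share, 4 of 35 (11.4%). Of the 9 on chromosome Y, 3 lay within 7.24 kb (chrY:58982733-58989970), among 2 shared and 2 untreated-only regions. Of the 80, 17 had an untreated peak within 1000 bp that did not overlap them.

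The untreated-only regions reached a score of 248 in a list whose highest is 3100. The highest were chrY:58992124-58992635 (248), chr7:148224599-148225014 (239), chr21:9826670-9827605 (189) and chr16:3202284-3202795 (177). Then came chr10:102819743-102820100 and chr11:6341922-6342386 (177 each) and chr20:26189764-26190264 (173). Named starts in this class were those of the RNA-binding protein gene RALY (chr20:32581307-32581616, 134), HSPA4L, the translation factor gene EIF5 (chr14:103800445-103800690, 117), the redox protein gene PARK7 (chr1:8021947-8022334, 115) and JUN (chr1:59249761-59250021). None of these starts had a WT peak. With 1 untreated library, no replicate shows whether such regions recur.

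WT lists, which took no part in forming the classes, held a peak at 250 of the 6530 KO regions (3.83%). They held 132 of the 366 shared regions (36.1%, exact 95% interval 31.1 to 41.2) and 20 of the 80 of the heat shock class (25%, 16 to 35.9). Of the 2186 untreated-only regions they held 36 (1.65%, 1.16 to 2.27). Of regions of a single heat shock list they held 13 of 1066 (1.22%) for replicate 1 and 18 of 2533 (0.711%) for replicate 2. Of regions shared by untreated cells and 1 heat shock replicate they held 6 of 35 (17.1%, 6.56 to 33.6) for replicate 1 and 25 of 264 (9.47%, 6.22 to 13.7) for replicate 2. These shares go with score, so they were also set side by side within bins. Between lower heat shock scores of 50 and 75, WT lists held 26 of 131 shared regions (19.8%, 13.4 to 27.7) and 12 of 60 of the heat shock class (20%, 10.8 to 32.3). Between 100 and 200 they held 28 of 90 (31.1%, 21.8 to 41.7) and 5 of 6 (83.3%, 35.9 to 99.6), and 4 of those 5 lay in HSF1 or TET1. Neighbouring regions in HSF1 can lie under 1 wide WT peak, so these 6 are not independent and their interval is too narrow. The heat shock class was found in WT heat shock replicates 1 and 2 at 16 and 11 of 80 and in untreated WT at 9 of 80. Shared regions had the same order, at 104, 75 and 62 of 366, as did all KO regions, at 2.99%, 1.90% and 1.55% of 6530.

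**Figure D5:**
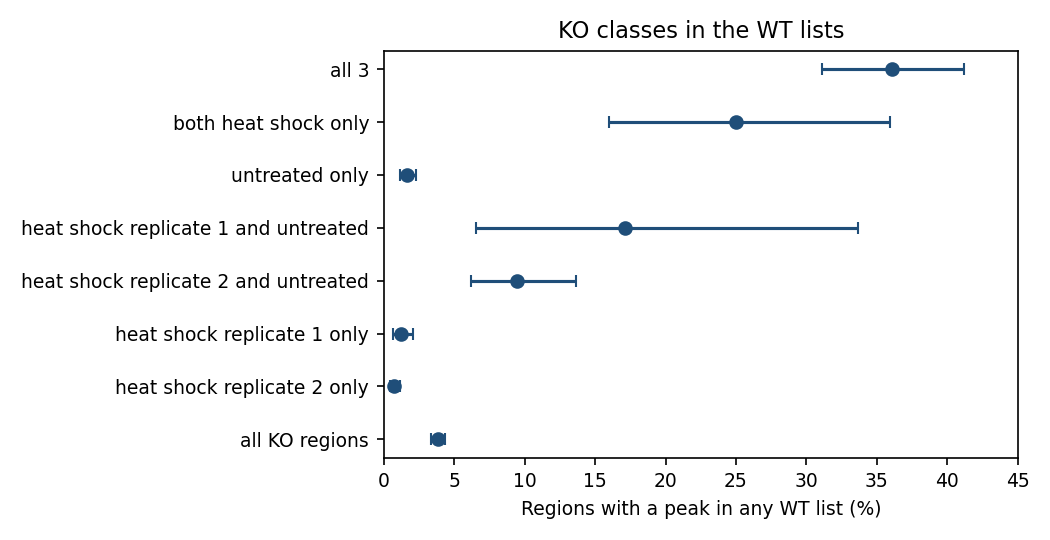
Points give the percent of regions of each KO class with a peak in any WT list, with exact 95% intervals that cover counting error only. Regions of all 3 KO lists (36.1%) and of both heat shock lists (25%) lie above the untreated-only regions (1.65%) and the single-replicate classes.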

How the data were processed

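Peak lists of 3 KO and 3 WT HSF1 libraries were used, each with 5 columns. The submitters' processing notes list CASAVA, Bowtie 0.12.7, MACS 1.4.2 and hg19 and give no role for any of them. The names of the deposited lists pair every library with an input of matching cells and treatment. The score is the authors' deposited peak score. Starts were converted to count from 1. Regions were joined and counted with numpy 2.4.6, pandas 2.3.3 and Python 3.11.15. Joining was checked against bedtools 2.31.1 (6530 of 6530 regions identical) and tested on simulated lists. Intervals are exact Clopper-Pearson at 95%, and rho is from scipy 1.17.1. Figures were drawn with matplotlib 3.10.9.

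Named regions were up to 10 per class by score or worst rank, the same among known gene starts, every gene of the lists with a region, and 5 regions for each direction of shift. Further regions in HSF1 and TET1, and their grouping by gene body, were chosen after their values were seen. The members and gene lists were chosen with earlier results of these data known. Gene starts and bodies on hg19 came from general knowledge, many of them entered after the regions had been seen. Shares of regions at promoters, and list counts over all genes, were not computed, since no hg19 annotation was used. The 4 input libraries were not analysed here. A member of the ubiquitin and proteasome list is not reported here.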

Additional observations from a re-analysis of the deposited data

How the results depend on the processing

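No paired analysis was possible because the KO heat shock and untreated groups share 1 replicate number. With scores of at least 100 in every list, heat shock, untreated-only and shared regions numbered 16, 170 and 178. The 500 highest peaks of each list gave 45, 148 and 230, the 1500 highest gave 915 untreated-only regions, and leaving out the widest 5% of peaks gave 199 shared ones. Fewer peaks entered each of these. Leaving out 1 heat shock library changes the rule of the class: regions of heat shock without untreated then numbered 1146 (without replicate 2) and 2613 (without replicate 1), untreated-only ones 2221 to 2450 and shared ones 401 to 630. Joining within 1000 bp, centres within 500 bp and leaving out chromosome Y kept all 3 counts within 1.5 times. At scores of at least 100, rho of replicate 1 and untreated cells was 0.73, and WT lists held 50% of the heat shock class, 15.3% of the untreated-only class and 53.4% of shared regions. With centres within 500 bp they held 1.01% of the untreated-only class. With 1 mismatch allowed in the 9 fixed letters, an element was found in 32.7% of promoters of named genes of all 3 lists and in 6.24% of all promoters; with 2 units these were 40.4% and 13.5%. The cause of these changes was not tested. Without HSF1 and TET1, a setting chosen after seeing the data, 72 heat shock and 360 shared regions were left, and rho was 0.74 between the replicates, 0.66 between replicate 1 and untreated cells and 0.84 between replicate 2 and untreated cells. With each region counted once, also chosen after seeing the data, 14% of named promoters held an element. Alternatives for promoter shares and gene lists were not run. Unknown depth limits each class, since a region just under the caller's limit goes unlisted.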
